A study of Mus musculus with 6 samples.

Results

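Plexins, semaphorins and neuropilins were examined in sorted long-term haematopoietic stem cells, LT-HSC, from Itpkb-/- and wild-type (WT) mice through 8 genes: Plxna4, Plxnb2, Plxnc1, Plxnd1, Sema4a, Sema4d, Nrp1 and Nrp2. They were taken by symbol from the deposited table, whose genes were 12008 that passed a filter on low values and 11990 that did not, and all 8 were found. The 8 were chosen by their genotype differences and levels in these same libraries, so their own differences are given as a description without a test. The other 23 genes of the plexin and semaphorin families were taken by name whatever their values, and the 11 of them that passed the filter were tested. The Itpkb-/- mice carried the Ms T-less allele, which was induced with the mutagen ENU and is present in every cell of the animal. The controls were WT littermates, both genotypes were on the C57BL/6 background, and no treatment is given. Each genotype had 3 libraries, and each library pooled 4 age-matched mice, whose age is not given. Cells were sorted from lineage-depleted bone marrow as Sca-1 and Kit positive, CD150 positive and negative for CD34, CD48 and Flk2.

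Semaphorins are secreted or membrane-bound ligands first known from the guidance of growing axons, and plexins are their receptors. The cytoplasmic part of a plexin acts on small GTPases of the Ras and Rap families, and through them on integrin adhesion and the actin cytoskeleton. Neuropilins bind secreted class 3 semaphorins and certain vascular endothelial growth factors, and hand the class 3 ligands to type A plexins, whereas membrane-bound semaphorins of classes 4, 6 and 7 bind plexins directly. In blood, semaphorins are best known from contacts between lymphocytes, dendritic cells and myeloid cells.

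Depth was 4777870, 6559673 and 7470329 reads in the Itpkb-/- libraries and 4024203 to 6597505 in the WT libraries. Values are normalized CPM, reads scaled to library size times a TMM factor. A detection floor of 3 reads corresponded to 0.393 to 0.746 CPM. Itpkb, the kinase gene that carries the allele, was at 10.2, 14.0 and 18.2 CPM in Itpkb-/- libraries 1, 2 and 3, against 22.1, 23.6 and 25.1 CPM in WT libraries. A mutagen allele need not remove its transcript, so this checks the labels only in part. The positive gate genes Kit, Ly6a and Slamf1 were at 42.6 CPM or more in every library. Of the negative ones, Cd34 was at 203.8 to 220.2 CPM in Itpkb-/- and 172.0 to 203.6 CPM in WT libraries, Cd48 at 7.08 to 33.3 CPM in Itpkb-/- and 4.65 to 13.6 CPM in WT libraries, and Flt3, which encodes Flk2, at 22.9 to 37.9 CPM in Itpkb-/- and 7.21 to 31.5 CPM in WT libraries. None of the 6 was called (limma without a block; 0 at an unadjusted p under 0.05; edgeR 0), and with the replicate number as a block Cd48 and Flt3 were higher and Kit lower. Across the 12008 genes tested with limma on log2(CPM + 1), 661 met the limit of 0.15 on the adjusted p, which the series design text also used. Replicate numbers recur in both genotypes, and with the number as a replicate block 2176 were called. Without WT replicate 3 the count was 64. In bulk RNA, fewer cells of a type and less RNA per cell cannot be told apart, and this holds for each difference that follows.

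Promoter sequence is shown for 3 genes, all from RefSeq on GRCm38.p6 and none overlapping an annotated exon. They are Plxnc1, the most abundant receptor, Sema4a, the ligand that varied most, and Plxna3, one of the type A plexins, which were lower together in Itpkb-/-. The RefSeq table matched 7 of the 8 genes, all but Plxna4. Each window holds the 250 bases before the start, 5′ to 3′ on the gene's strand, from chr10:94944846-94945095, minus strand, chr3:88461183-88461432, minus strand, and chrX:74328816-74329065, plus strand. Capitals mark matches on either strand. Searched were GGGCGG for the GC box bound by Sp factors, GGAAGT for the ETS factors of blood cells, TGTGGT for the RUNX factors such as Runx1, and AGATAA for the GATA factors such as Gata2.
Plxnc1: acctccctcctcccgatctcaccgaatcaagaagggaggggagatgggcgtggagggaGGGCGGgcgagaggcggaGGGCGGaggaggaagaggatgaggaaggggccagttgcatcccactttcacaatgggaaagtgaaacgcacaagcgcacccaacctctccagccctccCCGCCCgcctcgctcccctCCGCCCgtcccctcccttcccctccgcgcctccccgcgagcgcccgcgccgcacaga
Sema4a: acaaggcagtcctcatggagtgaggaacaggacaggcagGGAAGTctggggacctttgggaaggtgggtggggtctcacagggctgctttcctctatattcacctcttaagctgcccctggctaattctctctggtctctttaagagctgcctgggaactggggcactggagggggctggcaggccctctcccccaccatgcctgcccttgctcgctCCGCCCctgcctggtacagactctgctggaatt
Plxna3: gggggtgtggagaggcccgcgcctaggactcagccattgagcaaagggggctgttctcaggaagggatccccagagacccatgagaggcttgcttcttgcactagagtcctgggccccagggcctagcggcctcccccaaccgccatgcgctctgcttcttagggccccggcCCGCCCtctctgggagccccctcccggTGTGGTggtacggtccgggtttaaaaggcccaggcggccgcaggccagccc

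The Plxnc1 window held 4 GC boxes and none of the other motifs. Sema4a held 1 GC box and 1 ETS match, and Plxna3 held 1 GC box and 1 RUNX match. Of 32851 RefSeq windows of the same length, 32.7% held a GC box, 19.7% the ETS letters, 14.0% the RUNX letters and 9.99% the GATA letters. Sema4a has 4 starts in the table, of which the most upstream is shown. A match describes the letters and is not a measured site.

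Plxna4, a type A plexin that works with neuropilins for class 3 semaphorins and binds class 6 semaphorins directly, differed most downwards of the 8 genes. Plxna4 (chromosome 6, 32144268 to 32588192, minus strand, build mm10) was measured at 10.9, 7.30 and 11.3 CPM in Itpkb-/- libraries, against 31.1, 31.2 and 30.2 CPM in WT libraries. Every Itpkb-/- library lay far below every WT library, and the WT libraries were almost level. The means were 9.82 ± 2.19 CPM in Itpkb-/- and 30.8 ± 0.584 CPM in WT (SD, n = 3 each), and the log2 difference was -1.58 (SE 0.23). Its value ran from -1.68 to -1.40 over all 13 alternatives. These values rest on 50, 47 and 86 reads in Itpkb-/- libraries and on 125, 209 and 162 reads in WT libraries.

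Plxnc1, the receptor of the membrane-anchored Sema7a, was the most abundant of the 8 genes. Plxnc1 (chromosome 10, 94790866 to 94944835, minus strand) stood at 366, 347 and 460 CPM in Itpkb-/- libraries, against 449, 479 and 512 CPM in WT libraries. The genotypes overlapped only where Itpkb-/- library 3 passed WT library 1. The means were 390.9 ± 60.8 CPM in Itpkb-/- and 480.1 ± 31.9 CPM in WT (SD, n = 3 each), with a log2 difference of -0.30 (SE 0.14). In the same-numbered pairs the difference was -0.29, -0.47 and -0.15, lower in Itpkb-/- each time.

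Plxnb2, a receptor of class 4 semaphorins that also binds the ribonuclease angiogenin (chromosome 15, 89155549 to 89180788, minus strand), was at 32.7, 55.6 and 45.5 CPM in Itpkb-/- libraries, against 49.7, 40.2 and 60.5 CPM in WT libraries. The ranges overlapped widely, and the log2 difference of -0.18 (SE 0.22) was smaller than its error and was 0.02 without Itpkb-/- replicate 1. Plxnd1, a receptor of Sema3e and of Sema4a (chromosome 6, 115954811 to 115995005, minus strand), was at 15.7, 34.8 and 12.8 CPM in Itpkb-/- libraries, against 18.9, 24.4 and 20.1 CPM in WT libraries. Itpkb-/- library 2 was above all WT libraries and the other Itpkb-/- libraries were below them. The Plxnd1 log2 difference of -0.12 (SE 0.32) therefore turned with the library left out, to -0.53 without Itpkb-/- replicate 2 and to 0.15 without Itpkb-/- replicate 3.

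**Figure D1:**
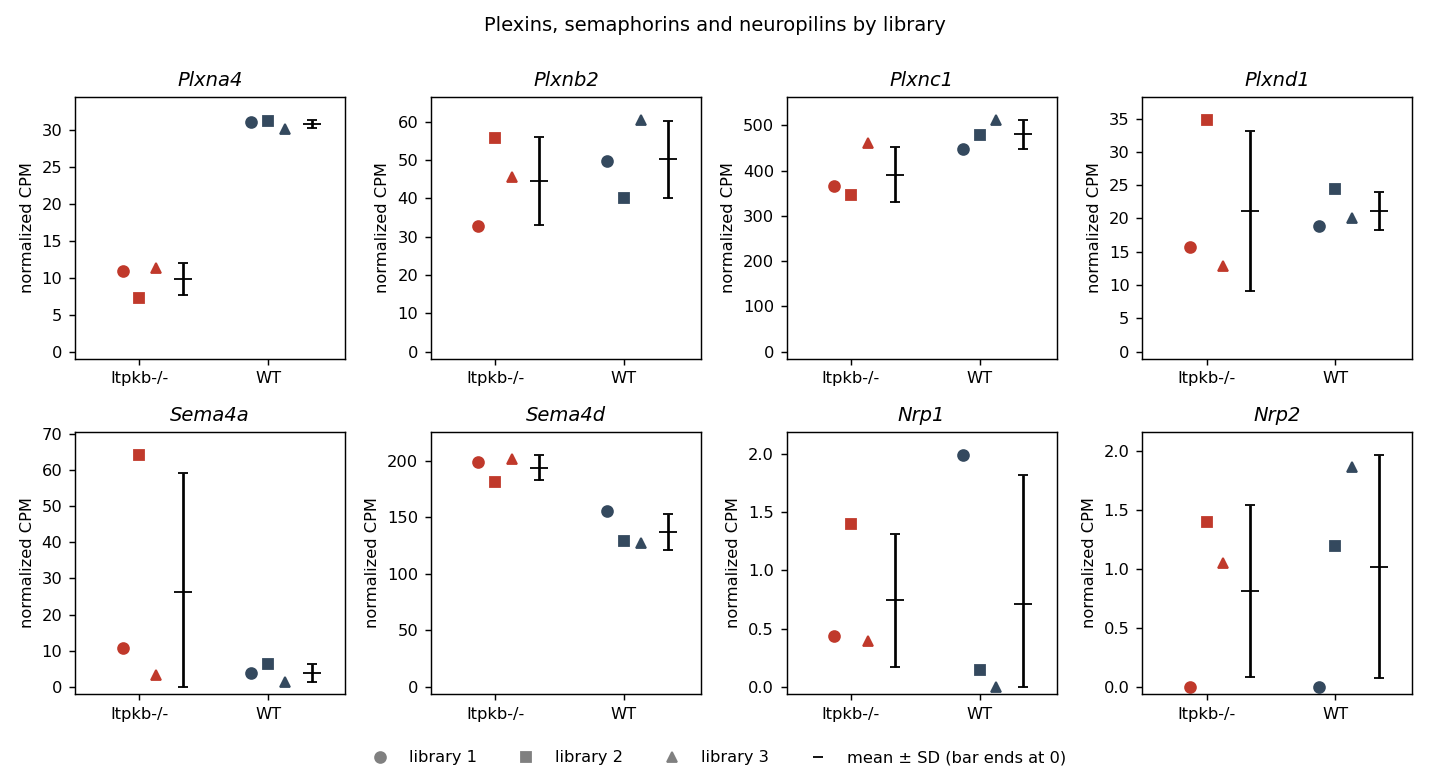
Normalized CPM (vertical axes, one scale per gene) of the 8 genes in Itpkb-/- and WT libraries, with library numbers as symbols and mean ± SD beside them, the bars ending at 0. Plxna4 separates the genotypes downwards and Sema4d upwards, Sema4a reaches 64.0 CPM in 1 Itpkb-/- library, and Nrp1 and Nrp2 stay below 2 CPM.

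Of the ligands, Sema4d was higher in Itpkb-/- and Sema4a varied most between libraries. Sema4d, also known as CD100, is a membrane-bound ligand of type B plexins that T cells carry at high level. Sema4d (chromosome 13, 51685529 to 51793747, minus strand) was measured at 198.6, 181.0 and 201.6 CPM in Itpkb-/- libraries, against 155.7, 128.7 and 127.0 CPM in WT libraries. All Itpkb-/- libraries lay above all WT libraries. The means were 193.8 ± 11.1 CPM in Itpkb-/- and 137.1 ± 16.1 CPM in WT (SD, n = 3 each), and the log2 difference was 0.50 (SE 0.13), with a range of 0.45 to 0.59 over the 13 alternatives. The T cell receptor genes Cd3d, Cd3e and Cd3g were each at 0.995 CPM or less in every library, and Cd3g had no read. Among 9 T cell markers found, Thy1 alone rose of the 3 tested, where 5.50% of all tested genes were called, 2.27% higher. The summed level of the 9 was 22.2 to 43.3 CPM in Itpkb-/- and 16.8 to 22.1 CPM in WT libraries. Thy1 led this sum in every Itpkb-/- library, with means of 23.1 CPM in Itpkb-/- and 8.58 CPM in WT. The list did not rise as a whole: Cd247 had a log2 difference of -1.15, and Lck, at 0.37, overlapped between the genotypes. The part of T cell RNA in the Sema4d values was not tested.

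Sema4a, a class 4 ligand known from dendritic cells and T cell priming, was at 10.9, 64.0 and 3.41 CPM in Itpkb-/- libraries, against 3.98, 6.28 and 1.30 CPM in WT libraries (chromosome 3, 88435959 to 88461182, minus strand). Itpkb-/- library 2 was far above the other 5, and Itpkb-/- library 3 lay inside the WT range. The means were 26.1 ± 33.0 CPM in Itpkb-/- and 3.85 ± 2.49 CPM in WT (SD, n = 3 each), so the Itpkb-/- spread exceeded its mean. The log2 difference of 1.78 (SE 0.79) was 0.73 without Itpkb-/- replicate 2, 2.67 without Itpkb-/- replicate 3, 2.73 with edgeR and 2.76 with DESeq2. Within the same-numbered pairs it was 1.26, 3.16 and 0.94, higher in Itpkb-/- each time.

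The summed level of 13 granulocyte markers was also highest in Itpkb-/- library 2. It was 6822, 18777 and 975 CPM in Itpkb-/- libraries 1, 2 and 3 and 3898, 2777 and 749 CPM in WT libraries. Within each genotype the library with the lowest granulocyte sum was also the lowest for Sema4a. In Itpkb-/- the highest sum and the highest Sema4a fell in the same library, while in WT they fell in different ones. The markers were divided in WT: Mpo, Elane, Prtn3, Ctsg, Ms4a3 and Retnlg were highest in library 2, as Sema4a was, and the others in library 1. Mpo led the sum with 8728 CPM in Itpkb-/- library 2, whereas Ngp, Lcn2, Mmp8 and Retnlg were highest in Itpkb-/- library 1. None of the 13 markers was called (limma), 1 had an unadjusted p under 0.05, edgeR called 0, and all 13 rose with the replicate block, where 18.1% of all tested genes were called, 9.15% higher. The summed level of 10 monocyte and macrophage markers was 117, 393 and 31.5 CPM in Itpkb-/- libraries and 66.1, 69.3 and 28.9 CPM in WT libraries. Its order over the 6 libraries was that of Sema4a. Ly6c2 led this sum, at 10.6 to 362.7 CPM in Itpkb-/- and 10.4 to 45.3 CPM in WT libraries. Of these markers 6 were tested and none was called (limma), while 2 rose with the replicate block. The part of granulocyte or monocyte RNA in the Sema4a values was not tested. Of 9 dendritic markers 3 were tested and none was called (limma; 0 at an unadjusted p under 0.05; edgeR 0), while Flt3 was higher with the block. Their summed level was 53.5 to 85.5 CPM in Itpkb-/- and 46.8 to 71.3 CPM in WT libraries, mostly Bst2 and Flt3. Zbtb46 reached 3.57 CPM in Itpkb-/- and 4.48 CPM in WT libraries, Siglech and Xcr1 were at 0.218 CPM or less in every library, and Klk1 was at 0. Their part in the Sema4a values was not tested.

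**Figure D2:**
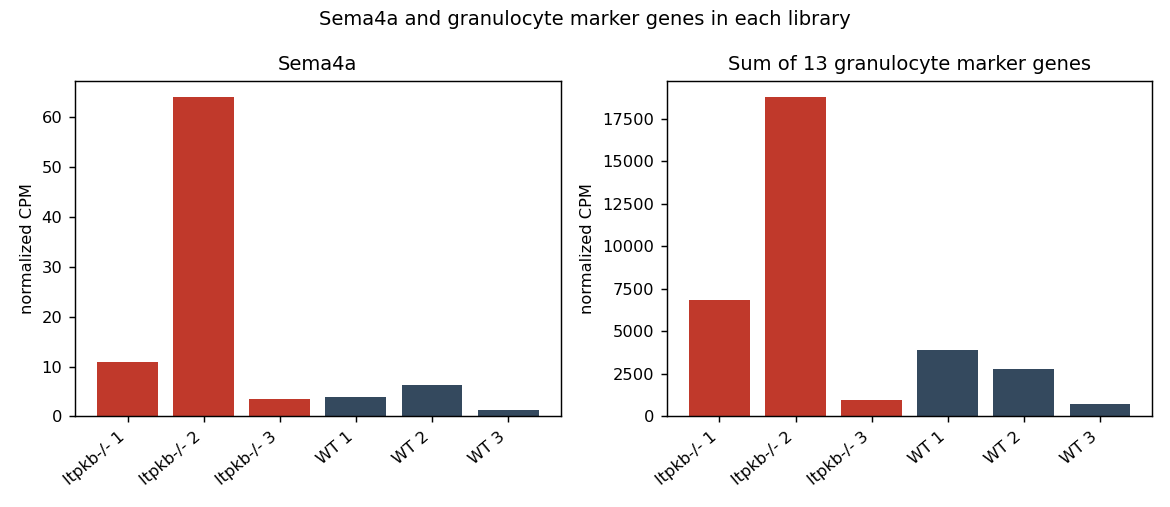
Sema4a (left) and the summed level of 13 granulocyte marker genes (right) in each library, as bars of normalized CPM from 0, Itpkb-/- in red and WT in dark blue. Itpkb-/- library 2 is highest in both panels, at 64.0 and 18777 CPM, and library 3 of each genotype is the lowest of its genotype in both.

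The neuropilins were close to the detection floor. Nrp1, the co-receptor of Sema3a and of vascular endothelial growth factor A, had 2, 9 and 3 reads in Itpkb-/- libraries and 8, 1 and 0 reads in WT libraries, or 0 to 1.99 CPM, and failed the filter on low values. Nrp2, the co-receptor of Sema3f and of vascular endothelial growth factor C, had 0, 9 and 8 reads in Itpkb-/- libraries and 0, 8 and 10 reads in WT libraries. It passed the filter with values of at most 1.86 CPM and a log2 difference of -0.12 (SE 0.52), which at this depth leaves a change in either direction undetectable. No fold is given for Nrp1.

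Of the 7 genes among the 8 that passed the filter, 2 were within the call limit, Plxna4 lower and Sema4d higher, where 5.50% of all tested genes were called, 2.27% higher and 3.24% lower. With the replicate block 4 of the 7 were within it, Plxnc1 lower and Sema4a higher being added, against 18.1% of all tested genes, 9.15% higher and 8.97% lower. The genotypes did not overlap for Plxna4 and Sema4d, where 21.3% of all tested genes did not. Since the 8 were chosen with this contrast in view, nothing is read from these counts.

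Compared per kb of exons, the 8 genes kept almost one order. In WT libraries Plxnc1 came first at 57.5 ± 3.83 CPM per kb, followed by Sema4d at 17.9 ± 2.10, Plxnb2 at 6.50 ± 1.32, Plxnd1 at 2.89 ± 0.393, Plxna4 at 2.19 ± 0.0414 and Sema4a at 0.713 ± 0.460 (SD, n = 3). Each of these levels was separated from its next neighbour by ranges that did not overlap, and so was Sema4a from Nrp2 at 0.0861 ± 0.0797. Nrp2 and Nrp1, at 0.0729 ± 0.113, could not be ordered. In Itpkb-/- libraries Plxnc1 was at 46.8 ± 7.28 CPM per kb, Sema4d at 25.2 ± 1.45 and Plxnb2 at 5.78 ± 1.49, the same first 3. Sema4a there spanned 0.630 to 11.8 CPM per kb, across the ranges of Plxnb2, Plxnd1 and Plxna4, so its mean rank of 4 in Itpkb-/-, against 6 in WT, is not a settled position. With the length of the longest transcript in place of all exons, the exchange of Nrp1 and Nrp2 was the only change in the WT order.

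**Figure D3:**
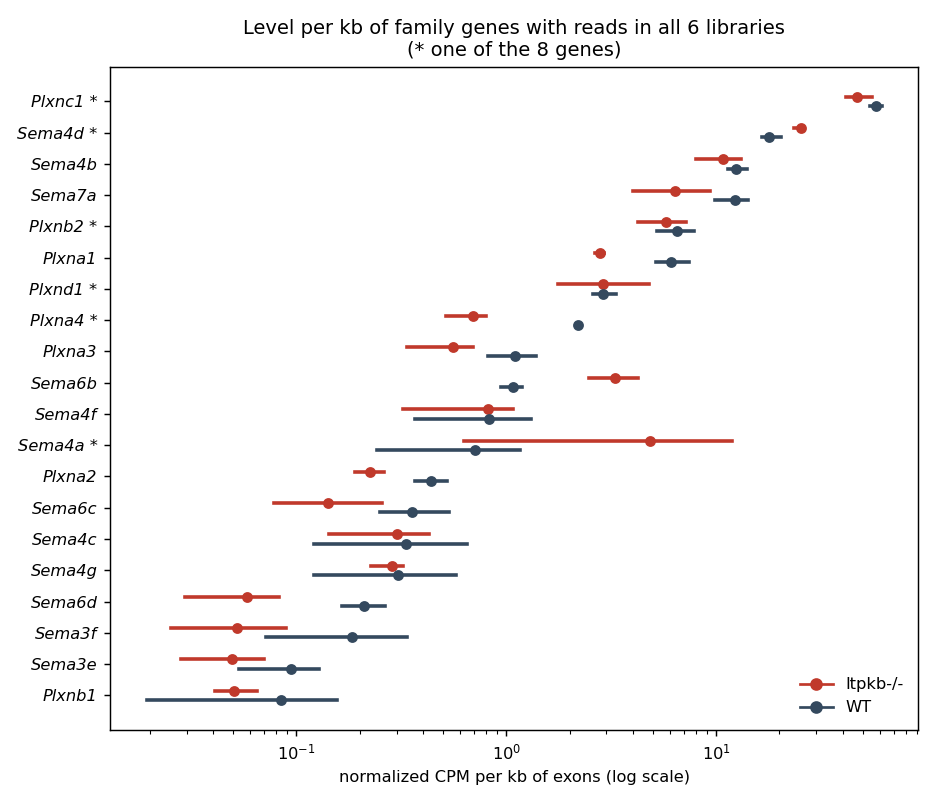
Level in normalized CPM per kb of exons on a log axis for the 20 family genes with reads in all 6 libraries, ordered by WT mean, with points for means and lines from the lowest to the highest library, and the 8 genes starred where they qualify. Plxnc1 leads in both genotypes, and Plxna1, Plxna4 and Sema6b are among the genes whose genotype ranges do not touch.

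All 4 type A plexins were lower in every Itpkb-/- library than in every WT library. Over all tested genes, 21.3% did not overlap between the genotypes, in either direction. Plxna4 was chosen by this contrast, so nothing is read from its part in this count. Of the 3 outside the 8 genes, Plxna1 fell past the test and Plxna2 and Plxna3 did not. Plxna1 (chromosome 6, 89316314 to 89362620, minus strand), a receptor of Sema3 and Sema6 ligands, was at 24.0, 25.6 and 26.5 CPM in Itpkb-/- libraries, against 51.5, 46.9 and 67.0 CPM in WT libraries. The Itpkb-/- libraries were tightly grouped below all WT libraries. Its means were 25.4 ± 1.28 CPM in Itpkb-/- and 55.1 ± 10.5 CPM in WT (SD, n = 3 each), and the log2 difference was -1.08 (SE 0.18, limma, adjusted p = 0.0224). Without WT replicate 3 the adjusted p was 0.168, and over all alternatives it lay between 7.73e-05 (DESeq2) and that value. An antisense gene, Gm26811, shares 970 bases of its exons, and the library kit does not mark strand, so their reads cannot be told apart.

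Plxna2 was at 3.27, 4.51 and 3.80 CPM in Itpkb-/- libraries, against 7.46, 6.28 and 8.94 CPM in WT libraries, a log2 difference of -0.81 (SE 0.30). Plxna3 was at 5.45, 2.64 and 5.11 CPM in Itpkb-/- libraries, against 10.9, 6.43 and 8.75 CPM in WT libraries, a log2 difference of -0.86 (SE 0.34). Neither passed (limma, adjusted p = 0.213 and 0.245), and both passed with the replicate block (limma, adjusted p = 0.138 and 0.0979). Summed without Plxna4, which was chosen by this contrast, the type A plexins were at 32.7, 32.8 and 35.4 CPM in Itpkb-/- libraries, against 69.9, 59.6 and 84.7 CPM in WT libraries. Per kb these 3 made up 6.56%, 6.02% and 5.69% of the signal of all plexins but Plxna4 in Itpkb-/- libraries and 10.7%, 8.78% and 11.1% in WT libraries.

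Of 12 genes known from LT-HSC, 7 fell and none rose, where 5.50% of all tested genes were called, 3.24% lower. Their summed level was 1287 to 1861 CPM in Itpkb-/- and 2412 to 2977 CPM in WT libraries. Endothelial markers, of which several are shared with stem cells, had 3 of 8 tested genes lower, beside the same shares, and 0 higher. Their summed level was 437.7 to 669.7 CPM in Itpkb-/- and 616.8 to 723.0 CPM in WT libraries. Pecam1 went the other way without being called in the fit with no block, at 54.2 to 78.8 CPM in Itpkb-/- and 42.3 to 53.2 CPM in WT libraries. With the replicate block 9 of the LT-HSC list fell and 0 rose, and of the endothelial list 4 fell and 1 rose. Of all tested genes 18.1% were called with the block, 9.15% higher and 8.97% lower. Cdh5 reached at most 0.524 CPM in any library, Plvap 1.31 CPM and Cldn5 2.61 CPM. The part of either list in the plexin values was not tested.

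**Figure D4:**
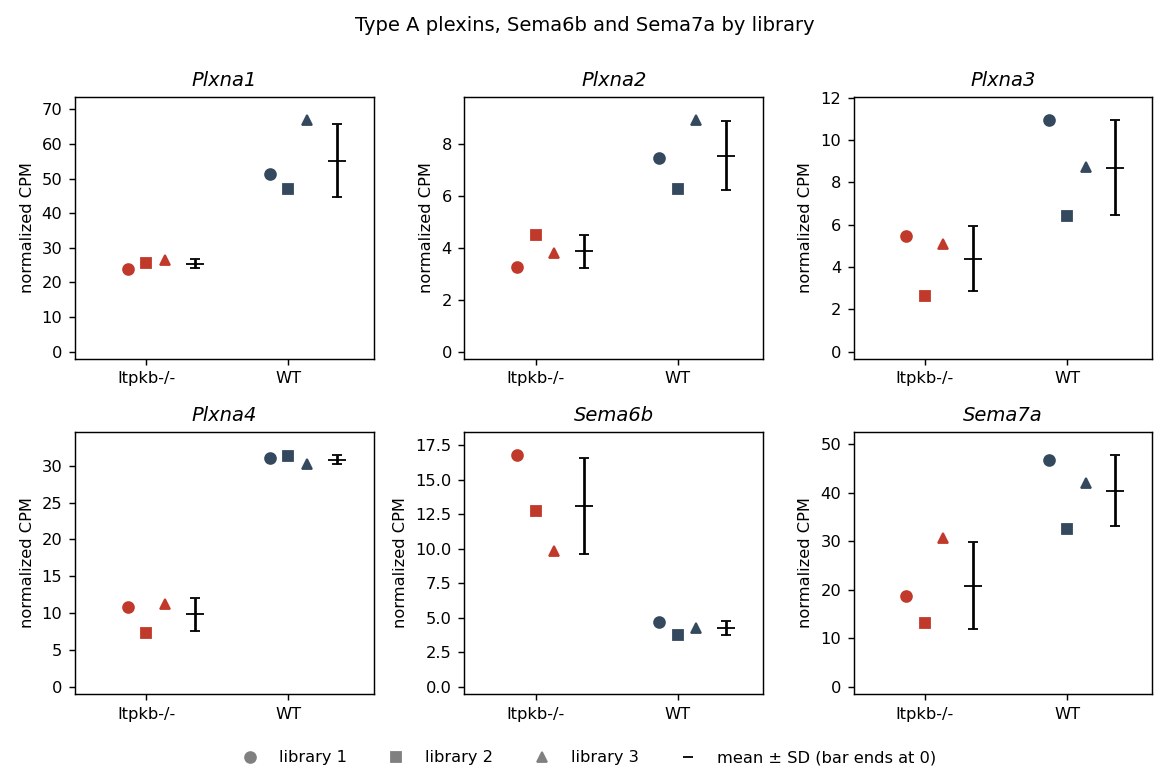
Normalized CPM (vertical axes from 0, one scale per gene) of the 4 type A plexins, Sema6b and Sema7a in Itpkb-/- and WT libraries, with library numbers as symbols and mean ± SD beside them. In each panel the genotypes are apart: the plexins and Sema7a are lower in Itpkb-/- libraries and Sema6b is higher.

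Sema6b, a membrane-bound ligand of Plxna4, rose. Sema6b (chromosome 17, 56123085 to 56140343, minus strand) was at 16.8, 12.7 and 9.83 CPM in Itpkb-/- libraries, against 4.72, 3.74 and 4.28 CPM in WT libraries. The means were 13.1 ± 3.49 CPM in Itpkb-/- and 4.25 ± 0.495 CPM in WT (SD, n = 3 each), and the log2 difference was 1.40 (SE 0.29, limma, adjusted p = 0.0432). The highest adjusted p over the alternatives was 0.207, without WT replicate 3. It rests on 75 to 82 reads in Itpkb-/- libraries and 19 to 25 reads in WT libraries.

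Sema7a, the lipid-anchored ligand of Plxnc1, fell. Sema7a (chromosome 9, 57940112 to 57962865, plus strand) was at 18.7, 13.2 and 30.7 CPM in Itpkb-/- libraries, against 46.8, 32.4 and 42.1 CPM in WT libraries, with means of 20.9 ± 8.92 CPM in Itpkb-/- and 40.4 ± 7.30 CPM in WT (SD, n = 3 each). Its log2 difference was -0.98 (SE 0.28, limma, adjusted p = 0.121, and 0.00877 with the replicate block). The call was lost in 5 of the 6 fits without 1 library, with an adjusted p up to 0.367. Sema7a and Plxnc1 were thus lower in Itpkb-/- in all 3 same-numbered pairs, by log2 differences of -1.27, -1.23 and -0.44 for Sema7a.

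Among the 23 family genes outside the 8, 11 passed the filter, 2 fell, 1 rose and 8 did not pass the test. That is 3 of 11, where 5.50% of all tested genes were called, and without WT replicate 3 it was 0 of them. With the replicate block 1 rose and 4 fell, against 18.1% of all tested genes. Sema6d passed the filter through its WT libraries alone, with 4, 2 and 5 reads in Itpkb-/- libraries and 7, 14 and 15 reads in WT libraries. In the other 10 genes the genotypes did not overlap in 5, where 21.3% of all tested genes did not, and the median log2 difference was -0.49, against 0.00 over all tested genes.

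Sema4b, the other abundant class 4 ligand, was at 60.9 ± 14.5 CPM in Itpkb-/- and 70.2 ± 7.69 CPM in WT (SD, n = 3 each), and the log2 difference was -0.23 (SE 0.19, limma, adjusted p = 0.627). Sema4c, Sema4f, Sema4g, Sema6c and Sema6d averaged 0.612 to 4.32 CPM in Itpkb-/- and 1.53 to 4.40 CPM in WT, and none of them passed. The 7 secreted class 3 semaphorins, most of which need a neuropilin while Sema3e can bind Plxnd1 without one, all failed the filter, with a summed level of 1.74 to 3.42 CPM in Itpkb-/- and 2.05 to 3.29 CPM in WT libraries. Sema3d had 4, 16 and 20 reads in Itpkb-/- libraries and 2, 3 and 0 in WT libraries, a separation that was not called without the filter (limma, adjusted p = 0.162). Sema5b had no read in any library.

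**Figure D5:**
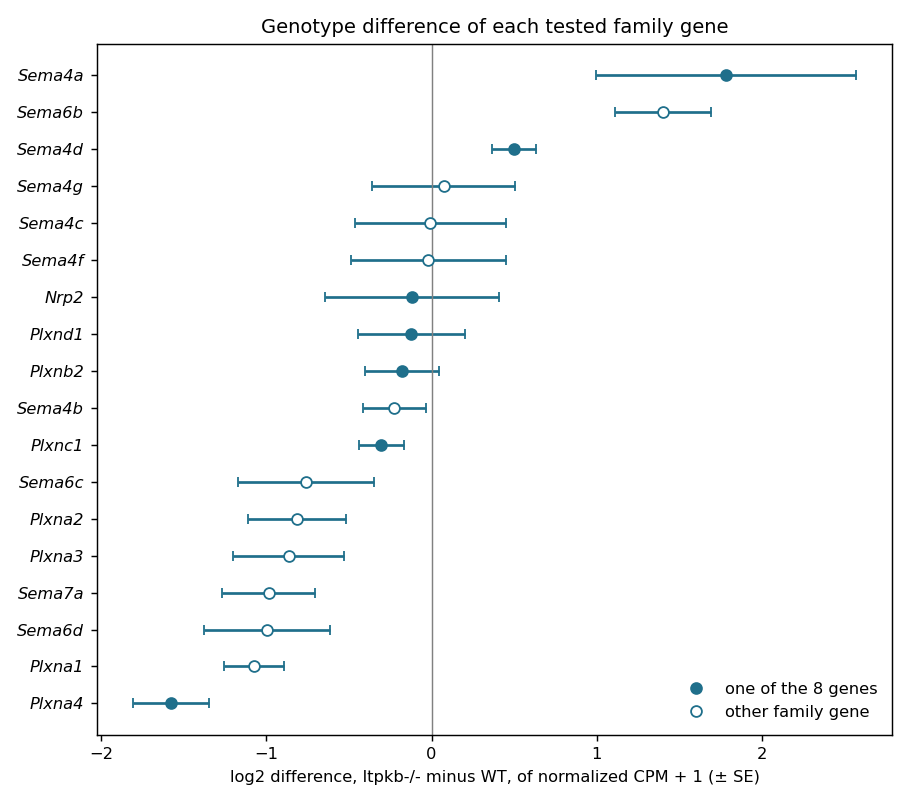
Log2 difference of normalized CPM + 1, Itpkb-/- minus WT, with SE, for the 18 family genes that passed the filter, the 7 chosen genes among them filled and the other family genes open. The 4 type A plexins lie between -1.58 and -0.81, and Sema4a, Sema6b and Sema4d are the genes above 0 by more than their SE.

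Co-receptors and other ligands of the families were tested as a list of 22 genes, of which 12 passed the filter. None was called (limma), where 5.50% of all tested genes were. An unadjusted p under 0.05 was found for 2, Met and Vegfc, where 1858 of the 12008 tested genes had one. With edgeR 1 was called lower, where 407 of the 12008 were. With the replicate block 1 was higher and 1 lower, where 18.1% of all tested genes were called. Met, a receptor kinase that can pair with type B plexins, was at 15.2, 14.5 and 10.9 CPM in Itpkb-/- libraries, against 4.23, 9.27 and 10.1 CPM in WT libraries (limma, adjusted p = 0.285, and 0.144 with the replicate block). Vegfc, a growth factor that binds Nrp2, was at 9.15, 8.55 and 9.31 CPM in Itpkb-/- libraries, against 17.7, 17.5 and 13.03 CPM in WT libraries (limma, adjusted p = 0.157, and 0.0811 with the block). Itgb1, the beta chain of the integrin to which Sema7a also binds, was at 289.5 to 340.6 CPM in Itpkb-/- and 263.9 to 297.9 CPM in WT libraries. Ang, the Plxnb2 ligand angiogenin, was at 0.931 CPM or less in every library.

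Of 40 genes that act below plexins, 35 passed the filter, 1 rose and 3 fell, where 5.50% of all tested genes were called, and the median log2 difference was -0.10. Rap1b, a Rap GTPase of the kind that plexins inactivate, was at 816.4 ± 186.2 CPM in Itpkb-/- and 546.7 ± 40.8 CPM in WT (SD, n = 3 each), and the log2 difference was 0.55 (limma, adjusted p = 0.133). The Ras family GTPases Mras and Rras2 fell, Mras to 4.90 ± 1.82 CPM in Itpkb-/-, against 12.6 ± 0.967 CPM in WT (log2 difference -1.26, limma, adjusted p = 0.0734). Rras2 was at 9.01 ± 1.61 CPM in Itpkb-/- and 17.2 ± 3.70 CPM in WT (log2 difference -0.85, limma, adjusted p = 0.141). Pak1, a kinase that acts on the cytoskeleton below Rac, fell to 104.7 ± 19.9 CPM in Itpkb-/-, against 157.3 ± 7.77 CPM in WT (log2 difference -0.60, limma, adjusted p = 0.0987). The Rras2 call was lost in all 6 fits without 1 library, those of Rap1b and Mras in 4 each and that of Pak1 in 3. Their adjusted p there reached 0.400 for Rap1b, 0.289 for Mras, 0.349 for Rras2 and 0.287 for Pak1 (limma). With the replicate block 3 of the list rose and 8 fell, where 18.1% of all tested genes were called, and Arhgef12, an exchange factor that binds type B plexins, was among those that fell (limma, adjusted p = 0.00824, and 0.165 without the block).

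Other guidance receptors and ligands, of the Robo, Unc5, netrin and Eph families, gave 18 tested genes of 38, of which 5 fell and 1 rose, where 5.50% of all tested genes were called, 3.24% lower and 2.27% higher. Without Epha4, which passed the filter through its WT libraries alone, the median log2 difference was -0.54. Those that fell were the Robo family genes Robo1 (log2 difference -1.43) and Robo4 (-1.02), the netrin receptor genes Unc5a (-1.36) and Neo1 (-1.08), and the ephrin gene Efna1 (-1.77). Robo3 rose, with 14.2 ± 1.63 CPM in Itpkb-/- and 4.34 ± 2.67 CPM in WT (SD, n = 3 each; log2 difference 1.64, limma, adjusted p = 0.0590). Robo4, which is known from LT-HSC and endothelium, was at 24.1 ± 7.26 CPM in Itpkb-/- and 48.9 ± 6.82 CPM in WT (limma, adjusted p = 0.0506). Each of the 6 lost its call without WT replicate 3, where the adjusted p was 0.211 to 0.341 (limma). Over the 6 fits without 1 library, Robo1 lost its call in 4, Neo1 in 3, Robo4 and Efna1 in 2 each, and Robo3 and Unc5a in 1 each. With the replicate block 7 of the list fell and 1 rose, where 18.1% of all tested genes were called. Whether the guidance families and the plexins differ in how often they were called was not tested.

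Likeness to Plxna4 and Sema4a over the 6 libraries was taken as Pearson's r of log2(CPM + 1). Family genes and genes with provisional symbols, such as Gm and Rik ones, were left out. The named genes most like Plxna4 were Pygm (0.995), Lars2 (0.995) and Zc2hc1a (0.993). These are descriptions over 6 libraries in 2 separate genotype groups. Of the tested genes kept, 156 reached 0.95 for Plxna4 and 61 for Sema4a. Pygm, muscle glycogen phosphorylase, was at 5.45, 2.33 and 4.32 CPM in Itpkb-/- libraries, against 28.1, 24.4 and 26.8 CPM in WT libraries. For Sema4a the 3 most alike were Pilrb2, Cst7 and Cfp, and each was highest in Itpkb-/- library 2, Cst7 at 79.4 CPM there and at 3.35 to 15.7 CPM in the other 5 libraries.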

How the data were processed

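RNA of sorted LT-HSC was sequenced in 6 libraries, 3 Itpkb-/- and 3 WT. The signal values, as deposited by the authors in a table titled as CPM, behave as read counts per gene divided by 1 factor per library and are called normalized CPM here. The header does not name the factor, which in all 6 libraries equalled the library size times edgeR's TMM factor computed from the recovered reads. Per the submitters' processing notes the tools were CASAVA 1.8.2, cutadapt, TopHat2 2.0.8b, Partek and edgeR on mm10; the series design text names TopHat 1.4.1 and Partek 6.6 instead. Every value was a whole multiple of what 1 read is worth in its library (100% within 0.01 read), so reads were recovered, with totals of 4024203 to 7470329. Reads carry no molecular identifiers, and floors cover counting error only.

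The 12008 genes that reached 1 in 3 or more libraries were tested with limma 3.58.1 (R 4.3.3, trended variance) on log2(value + 1), which understates changes of weakly expressed genes. Benjamini-Hochberg adjustment ran over all of them, with a limit of 0.15. The edgeR 4.0.16 quasi-likelihood test on recovered reads called 699 genes and DESeq2 1.42.0 called 924. The limma test was tried on simulated data.

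Same-numbered libraries deviated together from their genotype means (correlations of 0.296, 0.268 and 0.284). Others had correlations of -0.0475 or below, which centring on those means favours, so they add no separate evidence. From these same values the title numbers were taken to pair the libraries, which the labels do not state. The fit behind the reported adjusted p-values has no block, and the block was an alternative. Each replicate is its own pool of mice, per the labels, and libraries of a genotype differed by more than sampling noise (chi-square per degree of freedom 6.1 to 26.7).

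The 8 genes, the lists and the rule for named genes were chosen with earlier results of these data known. That rule took the 8 genes, Itpkb, every tested family gene, called genes of the partner, signalling and guidance lists, gate genes and defining markers. It also took the 3 named genes outside the families most like Plxna4 and most like Sema4a. Outside it, Met, Vegfc, Itgb1, Ang, Arhgef12, Epha4, Thy1, Bst2, Zbtb46, Sema3d and Sema5b were named after their values were seen. So were Elane, Prtn3, Ctsg, Ms4a3, Ly6c2, Cd247, Lck, Pecam1, Cdh5, Plvap and Cldn5. Positions and exon lengths are GENCODE M21 on mm10. Of the other marker lists, the monocyte and macrophage genes (6 tested of 10) and the B cell genes had 0 calls (limma). An unadjusted p under 0.05 was found in 1 and 0 of them, and edgeR called 0. Megakaryocyte genes had 2 higher and 1 lower of 9, and erythroid genes 2 higher of 10, where 5.50% of all tested genes were called. With the block, where 18.1% were, monocyte and macrophage genes had 2 higher, megakaryocyte genes 3 higher and 1 lower, and erythroid genes 4 higher and 3 lower.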

Additional observations from a re-analysis of the deposited data

How the results depend on the processing

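Scaling, pseudocount, filter, edgeR and DESeq2 left the number of all genes called between 452 and 924, within 1.5 times of 661, and the number of the 11 other family genes called at 2 or 3. The 661 calls became 2176 with the replicate block, which kept all 661, and 182 at a limit of 0.05. They ran from 64 to 839 without 1 library: 64 without WT replicate 3, 263 without Itpkb-/- replicate 2, 278 and 273 without WT replicates 1 and 2. The 3 family genes called outside the 8 became 5 with the replicate block and ran from 0 to 3 without 1 library, with 0 only without WT replicate 3. Plxna1 and Sema6b were otherwise called in every alternative, and Sema7a was also lost without the filter (limma, adjusted p = 0.187). Without the filter the calls of Rras2, Rap1b and Neo1 were lost too, and Rap1b with library sums scaled to a common total. Itpkb passed with the replicate block (limma, adjusted p = 0.0541) and without Itpkb-/- replicate 3 (0.119), and not otherwise. The gate genes Cd48, Flt3 and Kit also passed with the block, Cd48 with DESeq2 and without Itpkb-/- replicate 3 as well, Kit without Itpkb-/- replicate 1 and Flt3 without WT replicate 2.

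Signs turned for genes near 0 that were not called. Sema4c (log2 difference -0.01) was 0.030 with a pseudocount of 0.25 and ran from -0.30 to 0.38 without 1 library, being 0.24 without Itpkb-/- replicate 3. Sema4f (-0.02) ran from -0.40 to 0.41, with 0.32 and 0.022 without WT replicates 1 and 3. Sema4g (0.07) was -0.051 with edgeR, -0.064 with DESeq2 and ran from -0.27 to 0.51, with -0.023 without WT replicate 3. Ly6a (-0.12) ran from -0.22 to 0.015. Slamf1 (0.02) was -0.011 with library sums scaled to a common total and ran from -0.082 to 0.15, with -0.013 and -0.024 without WT replicates 1 and 2. The cause of these shifts was not tested. Nrp1 and Nrp2 had at most 10 reads in any library, which limits what could be seen of them.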
